A study of Mus musculus with 11 samples.

Results

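The subject is a set of 46 mouse genes for the extracellular matrix and for the integrins that bind it, followed in sensory neurons of the trigeminal ganglion. The 46 were listed by name and looked up in the count tables of all 11 libraries, and all 46 were found among 55401 genes and passed the filter on low counts that left 16817 genes for testing. This ganglion carries touch, temperature and pain from the mouth and face. Mice carried MOC1, a mouse line of oral squamous cell carcinoma, or had a sham procedure, and neurons that had taken up the retrograde tracer DiI in either group were sorted by fluorescence from ganglia of both sides. Poly(A)-selected RNA was sequenced from 3 libraries of MOC1 females, 3 of MOC1 males, 3 of sham females and 2 of sham males, the last numbered 1 and 3. The series design names tumour-associated pain as its subject, and the comparison made here is MOC1 against sham. Strain, age, time after implantation and the number of animals behind a library are not given in the sources used here, and the tumours came from a single cell line.

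The extracellular matrix is the protein mesh around cells. In a sensory ganglion each neuron is wrapped by satellite glia and, along its axon, by Schwann cells, and these units sit on a basement membrane of laminins, type IV collagen, nidogen and perlecan, while fibrillar collagens fill the connective tissue between them. Integrins are paired alpha and beta receptors on the cell surface that hold cells to this mesh, and secreted proteases and their inhibitors remodel it.

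Libraries held between 10757426 and 16703797 counts in genes, and between 14180 and 19078 genes were detected. Neuronal identity was present in all: the 20 pan-neuronal markers summed to between 14346 and 15417 CPM (counts per 1000000 counts in a library) in MOC1 libraries and to between 11166 and 13421 CPM in sham libraries. Markers of satellite glia, with Apoe the most abundant, were also present and summed to between 3298 and 5735 CPM in MOC1 against 8460 to 10318 CPM in sham, so that the groups did not overlap. Schwann cell markers, led by Scn7a, lay between 2545 and 2985 CPM in MOC1 and between 3342 and 3664 CPM in sham. These 3 sums each gave p = 0.00216, the smallest an exact permutation test over the 462 regroupings of the libraries can give, and adjusted p = 0.00577 over the 8 marker lists. Fibroblast markers summed to 80.5 ± 5.24 CPM (SD) in MOC1 and 68.4 ± 13.1 CPM in sham, higher rather than lower on average (adjusted p = 0.126 in the same exact test), and Dpt, Twist2 and Sfrp2 had no count in any library. Endothelial markers, led by Flt1 and Cdh5, stood at 1733 CPM in sham female 1 and between 129 and 307 CPM in the other 10 libraries (adjusted p = 0.156 in that exact test). Mural cell markers summed to 98.9 to 155 CPM in MOC1 and 99.7 to 212 CPM in sham with Ndufa4l2 at 0, and immune markers to 8.83 to 33.2 CPM against 19.2 to 68.4 CPM with Cd3e at 0. Of 13 markers of squamous epithelium and tumour, Krt5, Krt6a, Krt17 and Dsc3 had no count in any library, and the sum of 395 to 510 CPM in MOC1 and 402 to 456 CPM in sham was nearly all Cdh1. In bulk libraries fewer cells of a type and less RNA per cell cannot be told apart.

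With libraries scaled by TMM, transcripts such as Col4a1, Lamc1, Hspg2, Fbln2, Timp3 and Bgn were lower in MOC1, though scaling to satellite glia markers left 3 called lower, Col6a3, Bgn and Reln. Each of the 8 role classes held both called and uncalled genes except the 3 basement membrane linkers, which were all called. Of the 46 genes, 24 were called lower at an adjusted p under 0.05 and 0 were called higher, while among all tested genes 4.28% were lower and 2.34% higher (edgeR's quasi-likelihood test with sex as a term and Benjamini-Hochberg adjustment over all tested genes). The log2 fold change was negative for 39 of 46, with a median of -1.004, against a median of -0.03 over all tested genes. In 20 of the 46 every MOC1 library lay below every sham library, and in 0 did every MOC1 library lie above, where all tested genes gave 4.18% and 2.15%. At an unadjusted p under 0.05 there were 31 genes lower and 1 higher, the latter Vcan. Of all 16817 tested genes 3104 passed that limit in either direction. DESeq2 called 28 lower and 0 higher, beside 5.4% and 3.85% of all tested genes. With limma-voom 25 were lower and 1 higher, Itga3, beside 5.17% and 3.19%. Summed over the set, the genes took 2877 to 3589 CPM in MOC1 libraries and 4374 to 6663 CPM in sham libraries. The map of all values by library shows lower values in each role class and, beside them, genes that were not called.

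**Figure D1:**
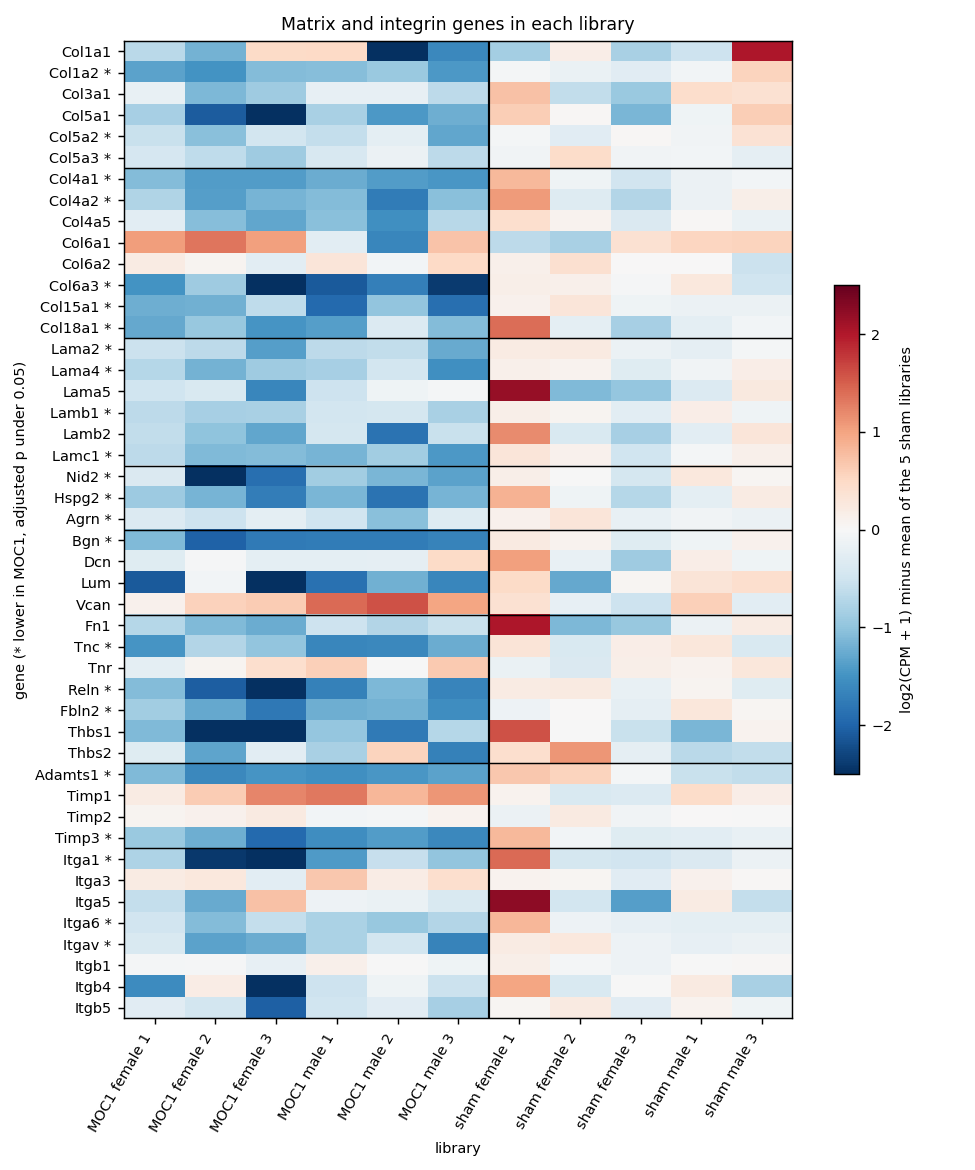
Log2(CPM + 1) of the 46 genes (rows, grouped by role) in the 11 libraries (columns), minus the mean of the 5 sham libraries. Blue rows are lower in the 6 MOC1 libraries, an asterisk marks the 24 genes called lower, and sham female 1 is the darkest red in Itga5, Lama5 and Fn1.

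Markers of satellite glia were lower in the same MOC1 libraries, and the size of the matrix change depends on the scale. The satellite glia sum was 2.07 times as high in sham as in MOC1. Of its 15 genes, 12 were themselves lower, with a median log2 fold change of -0.999, while 11 of 20 pan-neuronal genes were higher, with a median of 0.29. The Schwann cell list was mixed, with 7 of 19 genes lower, 1 higher and 11 not called, at log2 fold changes from -4.83 to 1.53. With libraries scaled to the pan-neuronal list, 31 of the 46 were lower and 0 higher, beside 13.3% and 0.172% of all tested genes, whose median moved to -0.30. With libraries scaled to the satellite glia list, 3 of the 46 were lower (Col6a3, Bgn and Reln) and 11 higher, where 0.369% of all tested genes were lower and 58.9% higher. The median of the 46 was then 0.01 and that of all tested genes 1.04. Such a scaling shifts all genes by about the same amount, so a gene's place relative to the median of all tested genes is nearly fixed, and 39 of the 46 lay below that median under TMM. With the log2 satellite glia share as a covariate 0 of the 46 and 0 of all tested genes were called by edgeR. At an unadjusted p under 0.05 there were 8 and 1141. That share did not overlap between the groups, so this fit hardly separates it from condition, and the 0 calls decide nothing. The part of glial RNA in the result was not tested. The comparison of scalings shows the 24 called genes moving together by a similar amount from one scale to the next.

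**Figure D2:**
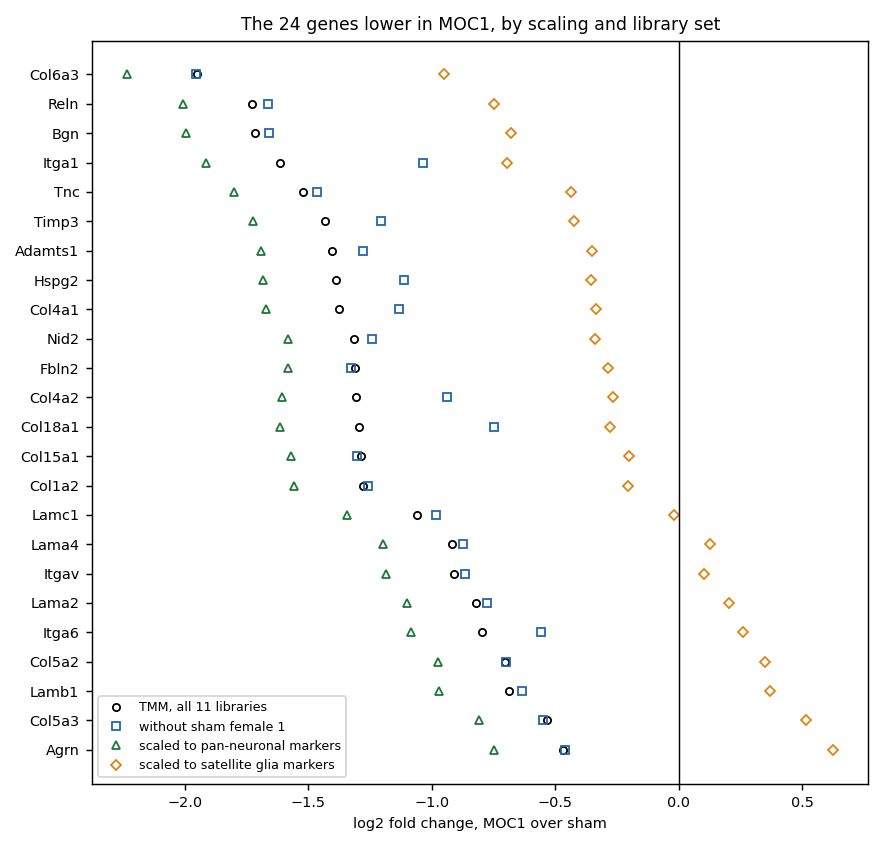
Log2 fold change of MOC1 over sham for the 24 genes called lower, with all 11 libraries under TMM scaling (circles), without sham female 1 (squares) and with libraries scaled to pan-neuronal (triangles) or satellite glia markers (diamonds). All 24 lie below 0 in the first 3, and under satellite glia scaling 16 lie below 0 and 8 above.

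Sham female 1 also stood apart in the members, as the library with the highest value among sham in 23 of the 46. Without it 20 were called lower and 0 higher, with a median of -0.76, beside 3.77% and 2.04% of all tested genes. Col18a1, Agrn, Tnc and Itga1 lost their call. The log2 fold changes of Col18a1 and Itga1 shrank to -0.75 and -1.04, while Agrn at -0.46 and Tnc at -1.46 were close to their values with all libraries. Among uncalled genes, Lama5, Dcn and Itga5 changed sign. A covariate for the joint share of endothelial, mural and fibroblast markers also left 20 lower, beside 3.56% of all tested genes. The same 4 genes were lost. Leaving out each library in turn gave 20 to 25 lower, beside 3.34% to 4.42% of all tested genes. Of the 24, 18 kept their call in all 11 such fits. The 18 are Col1a2, Col4a1, Col4a2, Col6a3, Col15a1, Lama2, Lama4, Lamb1, Lamc1, Nid2, Hspg2, Bgn, Reln, Fbln2, Adamts1, Timp3, Itga6 and Itgav.

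**Figure D3:**
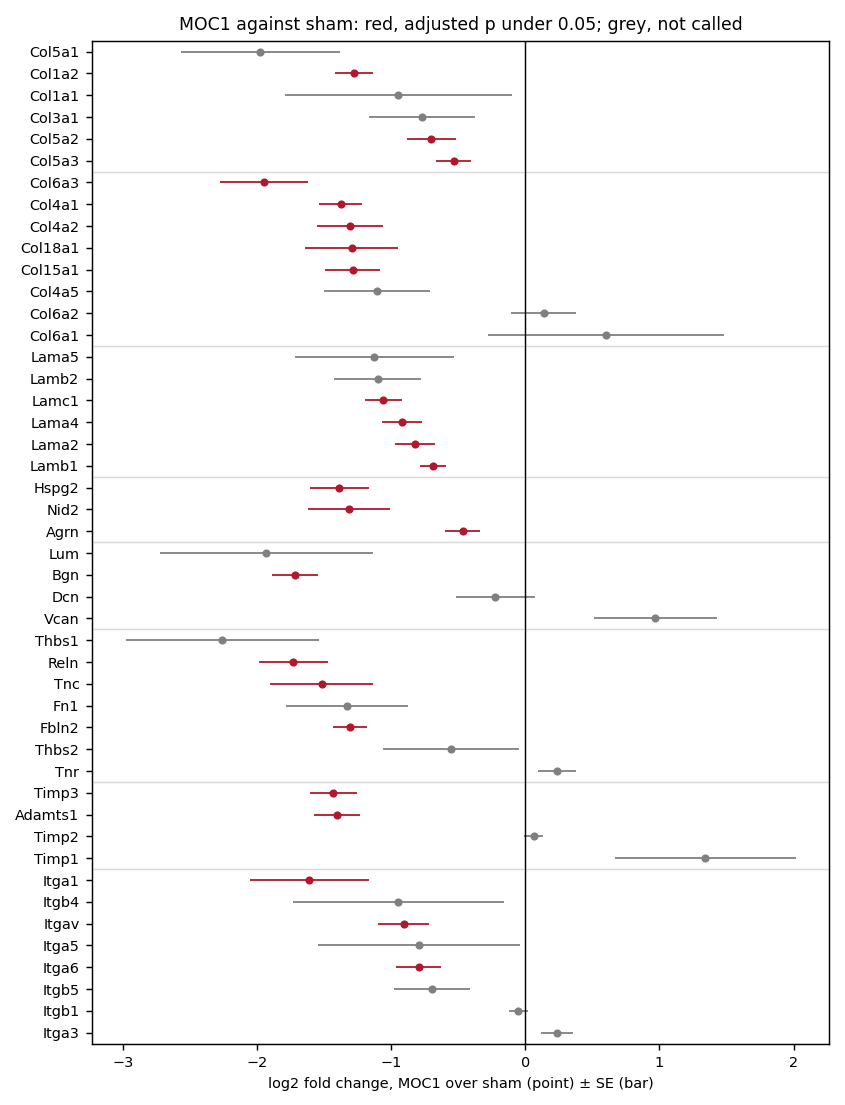
Log2 fold change of MOC1 over sham ± SE for each of the 46 genes, with role classes separated by lines in the order of the text (fibrillar collagens first, integrins last). Red points are the 24 genes called lower under TMM scaling, and the grey points include Timp2 and Itgb1, which lie near 0 with short bars.

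The gene starts were looked at for shared letters, since so many members moved together. RefSeq windows for GRCm38.p6 matched 35 of the 46 by symbol and gave 40 starts, each read over the 150 bases before the start. A GC box (GGGCGG on either strand) was present in 54.5% of the 22 windows of genes called lower (19 genes), in 55.6% of the 18 windows of genes not called (16 genes) and in 28.6% of all 32851 windows. A CCAAT box (CCAAT) was in 18.2%, 16.7% and 24.5% in the same order, a TATA box (TATAAA) in 9.09%, 11.1% and 7.57%, and an AP-1 site (TGANTCA) in 0%, 5.56% and 4.24%. Genes called lower and genes not called held GC boxes in similar shares of their windows. The windows below are from 3 genes called lower and then 2 that were not called. Among windows free of annotated exons, these are the called genes with the smallest p and the uncalled genes with the highest CPM per kilobase of exon. Each window runs 5′ to 3′ on the gene's strand, with motif matches on either strand in capitals. Bgn at chrX:73483451-73483600 on the plus strand holds 3 GC boxes, 1 pair of them overlapping. Adamts1 at chr16:85803114-85803263 on the minus strand holds 3 GC boxes and a TATA box. Reln at chr5:22344706-22344855 on the minus strand, 80% G and C, holds 4 GC boxes. Itgb1 at chr8:128685504-128685653 and Tnr at chr1:159523619-159523768, both on the plus strand, hold none of the 4 motifs. They do not stand for the uncalled windows, of which 55.6% hold a GC box.
Bgn: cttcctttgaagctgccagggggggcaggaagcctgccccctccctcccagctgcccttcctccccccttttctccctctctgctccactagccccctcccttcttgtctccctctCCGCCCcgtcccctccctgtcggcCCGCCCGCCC
Adamts1: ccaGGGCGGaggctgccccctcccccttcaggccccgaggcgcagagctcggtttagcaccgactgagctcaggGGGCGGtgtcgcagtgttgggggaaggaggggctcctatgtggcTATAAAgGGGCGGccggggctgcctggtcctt
Reln: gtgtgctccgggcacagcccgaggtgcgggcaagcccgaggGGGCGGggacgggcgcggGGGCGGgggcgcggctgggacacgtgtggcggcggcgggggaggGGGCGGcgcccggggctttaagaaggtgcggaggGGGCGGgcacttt
Itgb1: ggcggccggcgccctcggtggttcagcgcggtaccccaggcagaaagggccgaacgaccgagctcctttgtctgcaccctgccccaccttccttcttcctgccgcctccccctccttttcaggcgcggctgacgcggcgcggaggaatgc
Tnr: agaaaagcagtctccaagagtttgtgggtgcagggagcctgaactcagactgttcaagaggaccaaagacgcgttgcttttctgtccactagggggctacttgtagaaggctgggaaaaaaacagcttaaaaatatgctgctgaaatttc

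Values by library follow by role. For each gene the lowest, highest and median CPM of the 6 MOC1 libraries are given, then the sham values in the order female 1, female 2, female 3, male 1 and male 3. Identifiers and positions are those of GRCm38.

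Fibrillar collagens build the tension-bearing fibres of connective tissue. All 6 had negative log2 fold changes, Col1a1 through 1 library, and 3 were called lower, Col1a2, Col5a2 and Col5a3, of which Col5a2 and Col5a3 turned above 0 under satellite glia scaling. Col1a2, a chain of type I collagen (ENSMUSG00000029661.16, chr6:4504814-4541544), measured 27.2 to 40.7 CPM (median 33.3) in MOC1 and 75.6, 69.6, 63.98, 74.1 and 115 CPM in sham. The groups did not overlap and sham male 3 was the highest, and the log2 fold change was -1.28 ± 0.14 (SE), adjusted p = 1.42e-05. Its partner chain Col1a1 was scarcer, at 0.846 against 4.38 CPM per kilobase of exon. Col1a1 ranged from 0 to 7.91 CPM in MOC1, and in sham it was 24.8 CPM in male 3 and 2.51 to 6.13 CPM in the others. Its log2 fold change of -0.95 ± 0.85 (SE) did not pass (adjusted p = 0.645) and was 0.0445 without sham male 3. Col5a3, a type V collagen chain and the most abundant fibrillar member per kilobase (26.4 CPM), measured 114 to 191 CPM (median 148) in MOC1 and 201, 292, 201, 202 and 182 CPM in sham. The ranges overlapped at the lowest sham library, male 3, with a log2 fold change of -0.53 ± 0.13 (SE), adjusted p = 0.0174. That call was lost without MOC1 female 2 (adjusted p = 0.062). Col5a2, another type V chain, measured 18.2 to 39.2 CPM (median 30.7) in MOC1 and 44.9, 38.1, 47.5, 43.8 and 59.96 CPM in sham. Only sham female 2 lay within the MOC1 range, and the log2 fold change was -0.70 ± 0.18 (SE), adjusted p = 0.0231. Without MOC1 female 2, sham female 3 or sham male 3 the adjusted p was between 0.0549 and 0.103. Col5a1, the type V chain shared by most type V molecules, had a log2 fold change of -1.98 ± 0.59 (SE) and an adjusted p of 0.0545. Without MOC1 female 1, MOC1 female 3 or sham female 3 it was called (adjusted p between 0.0235 and 0.0438). Col3a1, the type III collagen chain, measured 2.86 to 6.397 CPM (median 5.32) in MOC1 and 12.9, 4.51, 3.42, 10.4 and 9.92 CPM in sham, and these ranges overlapped (log2 fold change -0.77 ± 0.40 (SE), adjusted p = 0.317).

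Basement membrane collagens and their relatives included 5 genes called lower of 8, with a class median log2 fold change of -1.29. Col4a1 and Col4a2 encode the chains of the type IV network that underlies most basement membranes, and they lie head to head on chromosome 8, overlapping by 22 bases. Col4a1 (ENSMUSG00000031502.11, chr8:11198423-11312826) measured 82.05 to 107 CPM (median 85.9) in MOC1 and 396, 211, 162, 205 and 215 CPM in sham. Sham female 1 was far above the other 4, yet every MOC1 library was below every sham library, and the log2 fold change was -1.38 ± 0.16 (SE), adjusted p = 2.39e-05. Col4a2 (ENSMUSG00000031503.13, chr8:11312805-11449287) measured 22.5 to 45.7 CPM (median 35.4) in MOC1 and 164, 62.3, 46.5, 70.5 and 86.5 CPM in sham. A small gap separated the groups, with sham female 3 the lowest sham library, and the log2 fold change was -1.31 ± 0.25 (SE), adjusted p = 0.00231. Without sham female 1 these 2 changes were -1.13 and -0.94, both still called. Col15a1, a collagen that anchors basement membranes to the tissue around them, measured 8.55 to 22.8 CPM (median 14.9) in MOC1 and 38.6, 44.4, 33.4, 32.2 and 32.4 CPM in sham. Here sham female 1 was not the highest, no library overlapped, and the log2 fold change was -1.29 ± 0.21 (SE), adjusted p = 0.000523. Col18a1, the related source of endostatin, measured 9.48 to 22.1 CPM (median 11.96) in MOC1 and 75.8, 23.8, 15.4, 23.6 and 27.1 CPM in sham. It rests on sham female 1: the log2 fold change was -1.30 ± 0.35 (SE) (adjusted p = 0.0282) and -0.75 without that library (adjusted p = 0.0837). The call was also lost without MOC1 female 1, 2 or 3 or MOC1 male 1 or 3, at adjusted p from 0.0538 to 0.0782.

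The type VI collagen chains, which form beaded microfilaments next to basement membranes, did not move as one. Col6a3, the long chain, measured 2.06 to 11.1 CPM (median 5.04) in MOC1 and 23.9, 23.5, 21.01, 25.9 and 14.97 CPM in sham. No MOC1 library reached the lowest sham library, male 3, and the log2 fold change of -1.95 ± 0.33 (SE) was the most negative of the called genes (adjusted p = 0.000866). Col6a3 was still lower under satellite glia scaling, at -0.95. Col6a2 measured 10.1 to 17.7 CPM (median 13.6) in MOC1 and 13.4, 16.6, 12.3, 12.3 and 8.14 CPM in sham, with overlapping ranges and a log2 fold change of 0.14 ± 0.24 (SE) (adjusted p = 0.856). Col6a1 had a log2 fold change of 0.60 ± 0.88 (SE) (adjusted p = 0.815) at 0 to 6.92 CPM in MOC1 libraries. Col4a5, an X-linked type IV chain, had a log2 fold change of -1.11 ± 0.40 (SE) (adjusted p = 0.116).

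Laminins are cross-shaped trimers of an alpha, a beta and a gamma chain. All 6 chains had negative log2 fold changes, Lama5 through 1 library, and 4 were called lower, although Lama2, Lama4 and Lamb1 turned above 0 under satellite glia scaling. Lamc1, the gamma chain of most laminins (ENSMUSG00000026478.14, chr1:153218922-153332786), measured 73.6 to 127 CPM (median 93.7) in MOC1 and 249, 217, 142, 196 and 219.8 CPM in sham. The groups were apart, with sham female 3 lowest of the sham libraries, and the log2 fold change was -1.06 ± 0.14 (SE), adjusted p = 5.5e-05. Lamb1, the beta chain often found with it, stood at 17.0 CPM per kilobase beside 17.7 for Lamc1. Lamb1 measured 117 to 155 CPM (median 126) in MOC1 and 232, 220.0, 174, 236 and 195 CPM in sham. Its fall was smaller and its libraries tight, with no overlap, a log2 fold change of -0.69 ± 0.10 (SE) and adjusted p = 0.000153. Lama4, an alpha chain of vessel and nerve basement membranes, measured 58.3 to 124 CPM (median 93.2) in MOC1 and 187, 182, 139, 160.2 and 191 CPM in sham. No libraries overlapped, and the log2 fold change was -0.92 ± 0.15 (SE), adjusted p = 0.000589. Lama2, the alpha chain of the laminin that surrounds Schwann cells and muscle fibres, measured 43.8 to 80.2 CPM (median 73.3) in MOC1 and 134, 135, 105, 98.8 and 112 CPM in sham. Sham male 1 was the lowest sham library and lay above all MOC1 libraries, and the log2 fold change was -0.82 ± 0.15 (SE), adjusted p = 0.00175. Lamb2, the beta chain of synaptic and kidney basement membranes, measured 8.47 to 23.98 CPM (median 18.5) in MOC1 and 75.5, 25.2, 17.9, 27.1 and 40.9 CPM in sham. Sham female 3 lay within the MOC1 range, and the log2 fold change of -1.10 ± 0.33 (SE) missed the threshold (adjusted p = 0.0501). Lamb2 passed without MOC1 male 1, sham female 3 or sham male 1 (adjusted p between 0.0233 and 0.0464), and without sham female 1 its change was -0.65 (adjusted p = 0.199). Lama5 was at 39.7 CPM in sham female 1 and 3.19 to 9.57 CPM in the other sham libraries, with a log2 fold change of -1.13 ± 0.59 (SE) (adjusted p = 0.334). Without sham female 1 the Lama5 value was 0.0752, so its negative sign rests on that library.

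All 3 genes that tie the basement membrane together were called lower, with Agrn above 0 under satellite glia scaling. Hspg2 encodes perlecan, a large heparan sulfate proteoglycan (ENSMUSG00000028763.18, chr4:137468769-137570630), and measured 32.5 to 62.6 CPM (median 52.7) in MOC1 and 217, 110.4, 71.9, 100.1 and 137 CPM in sham. Sham female 1 was highest and sham female 3 lowest, still above every MOC1 library, and the log2 fold change was -1.39 ± 0.22 (SE), adjusted p = 0.000522. Nid2, a nidogen that joins laminin to type IV collagen, measured 4.79 to 30.6 CPM (median 16.3) in MOC1 and 44.2, 39.1, 28.9, 47.6 and 40.9 CPM in sham. A single MOC1 library overlapped the lowest sham library, female 3, and the log2 fold change was -1.31 ± 0.31 (SE), adjusted p = 0.0124. Agrn, the proteoglycan agrin that clusters receptors at the neuromuscular synapse, measured 38.4 to 67.5 CPM (median 59.3) in MOC1 and 86.4, 98.3, 70.1, 75.4 and 71.5 CPM in sham. The groups were separated by a narrow gap, and the log2 fold change of -0.47 ± 0.13 (SE) was the smallest among the called genes (adjusted p = 0.0338). That call was lost without MOC1 female 1 or 2, sham female 1 or 2 or sham male 1 or 3, at adjusted p from 0.0576 to 0.111.

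Among 4 proteoglycans of the interstitial matrix, 1 was called lower. Bgn, the small leucine-rich proteoglycan biglycan (ENSMUSG00000031375.17, chrX:73483602-73495933), measured 12.2 to 23.7 CPM (median 14.98) in MOC1 and 61.3, 55.5, 42.4, 48.6 and 56.2 CPM in sham. MOC1 female 1 was the highest MOC1 library and still lay well under the lowest sham library. Its log2 fold change was -1.71 ± 0.17 (SE), adjusted p = 6.25e-06, and it stayed lower under satellite glia scaling, at -0.68. Dcn, the related decorin that coats collagen fibrils, measured 13.7 to 24.5 CPM (median 14.5) in MOC1 and 36.2, 15.03, 8.85, 19.3 and 15.9 CPM in sham. The sham range enclosed the MOC1 range, and the log2 fold change was -0.22 ± 0.29 (SE) (adjusted p = 0.786; 0.84 under satellite glia scaling and 0.18 without sham female 1). Lum, lumican of the same family, was at most 8.26 CPM in any library and did not pass, with a log2 fold change of -1.93 ± 0.79 (SE) and adjusted p = 0.186. Without MOC1 female 2 its adjusted p was 0.0243 and the log2 fold change -3.31. Vcan, the large hyaluronan-binding proteoglycan versican, had a log2 fold change of 0.97 ± 0.46 (SE) with adjusted p = 0.264 and was the least abundant member per kilobase (0.326 CPM).

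Of 7 matrix glycoproteins, 3 were called lower, Fbln2, Reln and Tnc. Fbln2, fibulin 2, binds basement membrane and elastic fibre proteins (ENSMUSG00000064080.12, chr6:91212455-91272540). It measured 136 to 259 CPM (median 198) in MOC1 and 435, 479, 405, 578 and 488 CPM in sham. Sham male 1 was highest, sham female 1 was not, and a wide gap lay between the groups. The log2 fold change was -1.31 ± 0.13 (SE), adjusted p = 4.74e-06, the smallest adjusted p of the 46. Reln, the secreted guidance protein reelin (ENSMUSG00000042453.14, chr5:21884454-22344702), measured 5.51 to 19.2 CPM (median 12.4) in MOC1 and 48.5, 48.7, 36.5, 43.7 and 33.4 CPM in sham. No library overlapped and MOC1 female 3 was the lowest, and the log2 fold change was -1.73 ± 0.26 (SE), adjusted p = 0.00025. Tnc, tenascin C of developing and injured tissue, was scarce and measured 2.06 to 4.66 CPM (median 2.703) in MOC1 and 10.8, 6.19, 9.56, 10.4 and 6.24 CPM in sham. Its groups were apart, with a log2 fold change of -1.52 ± 0.38 (SE) and adjusted p = 0.0198, and without sham female 1 or sham male 1 the adjusted p was 0.0649 or 0.135. Tnr, the tenascin R of perineuronal nets, went the other way in value without passing. Tnr measured 58.04 to 109 CPM (median 82.6) in MOC1 and 61.2, 53.6, 76.4, 73.7 and 84.1 CPM in sham, with overlapping ranges, a log2 fold change of 0.24 ± 0.14 (SE) and adjusted p = 0.41. Fn1, fibronectin, stood at 101 CPM in sham female 1 and 10.5 to 28.1 CPM in the other sham libraries, and its log2 fold change of -1.33 ± 0.45 (SE) did not pass (adjusted p = 0.0961). Without sham female 1 the Fn1 change was -0.33 (adjusted p = 0.571), and without sham female 2 its adjusted p was 0.0467. The thrombospondins Thbs1 and Thbs2, secreted regulators of adhesion, had log2 fold changes of -2.26 ± 0.72 (SE) and -0.55 ± 0.51 (SE) (adjusted p = 0.0706 and 0.654). Thbs1 was called without sham male 1 (adjusted p = 0.0253), and without sham female 1 its log2 fold change was -1.61 (adjusted p = 0.221).

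The protease and inhibitor class split by gene, with 2 of 4 called lower. Timp3, an inhibitor of metalloproteinases that is held in the matrix (ENSMUSG00000020044.13, chr10:86300372-86349506), was at 73.2 CPM per kilobase the most abundant gene of those called lower. It measured 227 to 461 CPM (median 314) in MOC1 and 1540.0, 836, 709, 729.5 and 764 CPM in sham. Sham female 1 was far above the rest, and the other 4 sham libraries were close together and all above MOC1. The log2 fold change was -1.43 ± 0.17 (SE), adjusted p = 3.34e-05, and -1.21 without sham female 1. Timp3 lies inside Syn3 on the opposite strand, and the counts are by strand. Adamts1, a secreted protease that cuts large proteoglycans, measured 45.1 to 64.8 CPM (median 50.1) in MOC1 and 223, 205, 134, 94.8 and 91.2 CPM in sham. Sham females were higher than sham males, all of them above every MOC1 library, and the log2 fold change was -1.41 ± 0.17 (SE), adjusted p = 3.24e-05. Timp2, the most abundant member at 209 CPM per kilobase, measured 755 to 925 CPM (median 840.0) in MOC1 and 719, 931, 752, 795 and 789.7 CPM in sham. Its ranges overlapped and its log2 fold change was 0.06 ± 0.07 (SE) (adjusted p = 0.745; 1.15 and called higher under satellite glia scaling). Timp1 was between 0.661 and 4.37 CPM in all libraries, with a log2 fold change of 1.34 ± 0.67 (SE) and adjusted p = 0.303.

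Integrins changed by subunit. The alpha chains Itga1, Itga6 and Itgav were called lower, none of the other 5 was called, and Itga6 and Itgav turned above 0 under satellite glia scaling. Itga6, an alpha chain of laminin receptors (ENSMUSG00000027111.16, chr2:71745616-71858416), measured 49.8 to 76.1 CPM (median 62.8) in MOC1 and 192, 97.9, 92.3, 90.4 and 89.9 CPM in sham. The 4 sham libraries other than female 1 were within a narrow band above the MOC1 range, and the log2 fold change was -0.79 ± 0.17 (SE), adjusted p = 0.00602. Itgav, the alpha chain of receptors for vitronectin and latent TGF-beta, measured 39.7 to 99.2 CPM (median 63.7) in MOC1 and 149, 155, 118, 112 and 116 CPM in sham. No libraries overlapped, and the log2 fold change was -0.91 ± 0.19 (SE), adjusted p = 0.0059. Itga1, an alpha chain of collagen receptors, measured 3.68 to 19.6 CPM (median 12.5) in MOC1 and 80.5, 21.5, 21.1, 22.8 and 26.6 CPM in sham. The lowest sham library exceeded the highest MOC1 library by a small margin, and the log2 fold change was -1.61 ± 0.44 (SE), adjusted p = 0.0332. Without sham female 1 it was -1.04 (adjusted p = 0.0792), and without MOC1 female 2, MOC1 female 3, MOC1 male 1 or MOC1 male 3 the adjusted p was between 0.0504 and 0.112. Itgb1, the beta chain that pairs with most of these alpha chains, measured 387 to 489 CPM (median 436) in MOC1 and 493, 433, 410.1, 443 and 457 CPM in sham. The ranges overlapped over most of their width, with a log2 fold change of -0.05 ± 0.07 (SE) and adjusted p = 0.797, against 1.01 and a call as higher under satellite glia scaling. Itga3, an alpha chain of laminin receptors, had a log2 fold change of 0.24 ± 0.12 (SE) (adjusted p = 0.315). Itgb5, a partner of Itgav, had -0.70 ± 0.28 (SE) (adjusted p = 0.178). The fibronectin receptor chain Itga5 and the hemidesmosome chain Itgb4 were at most 19.3 and 10.2 CPM in any library, with log2 fold changes of -0.79 ± 0.75 (SE) and -0.95 ± 0.79 (SE) (adjusted p = 0.671 and 0.608). Without sham female 1 the Itga5 value was 0.47, so its negative sign rests on that library.

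**Figure D4:**
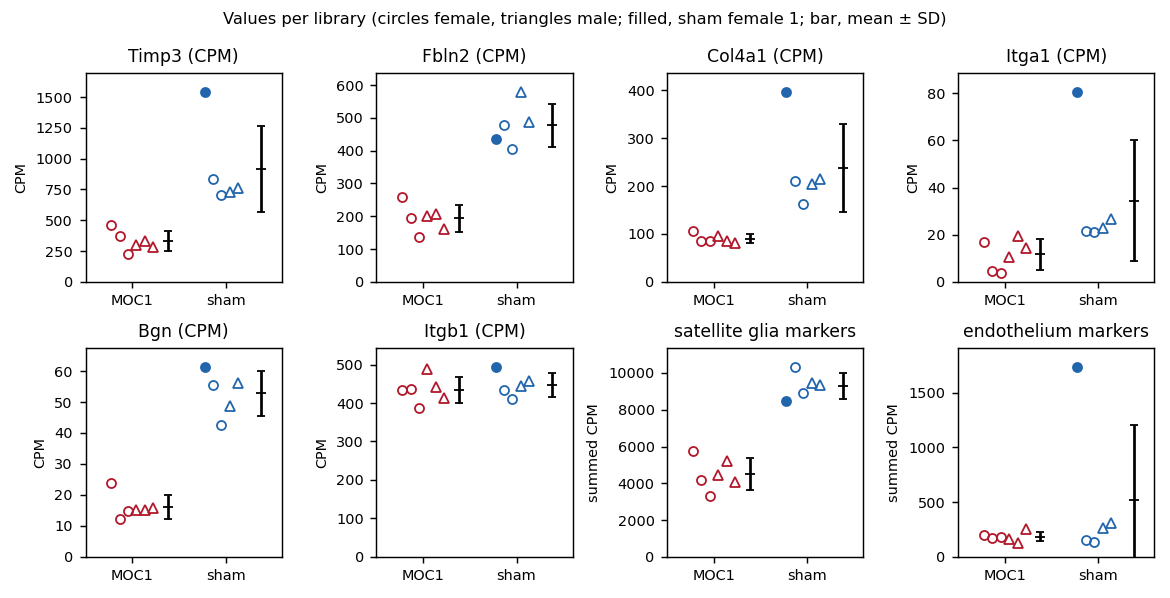
CPM per library of 6 genes and summed CPM of the satellite glia and endothelium markers, for the 6 MOC1 (red) and 5 sham (blue) libraries, with mean ± SD beside them (cut off at 0 for sham endothelium) and all axes from 0. Sham female 1 (filled) is high in Timp3, Col4a1, Itga1 and the endothelium markers but not in Fbln2, and Itgb1 is level between groups under TMM scaling.

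Level and call went together among the members. Of 32 members with a mean of at least 10 CPM 23 were called lower, and of 14 below it 1 was, Tnc. Over all tested genes and all levels 4.28% were lower. That share was not counted by level, so the split only describes the members. Among members at under 10 CPM, counts per library ran from 4 to 464 in Thbs1 and from 2 to 209 in Col5a1. In 4 of these members (Col1a1, Col6a1, Lum and Itgb4) some library had a count of 0. Fold changes of members at under 10 CPM came with wide errors. Thbs1, at -2.26 ± 0.72 (SE), and Col5a1, at -1.98 ± 0.59, did not pass, while Lamb1 passed at -0.69 ± 0.10. Among the 24 called genes MOC1 female 1 was the highest MOC1 library in 13 and sham female 3 the lowest sham library in 14. MOC1 female 1 also had the highest satellite glia sum of the MOC1 libraries, at 5735 CPM. The orders differed in sham. Sham female 1 had the lowest satellite glia sum there, at 8460 CPM, and was the highest sham library in 11 of the 24. Sham female 3 had a sum of 8896 CPM.

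Log2 fold changes were negative in both sexes for 36 of the 46 genes. Within females 21 of the 46 were lower (3.15% of all tested genes) and within males 9 (1.09%) with 3 sham female and 2 sham male libraries to compare against. The median log2 fold change was -1.15 in females and -0.83 in males, beside -0.04 and 0.01 over all tested genes. Of the 46, 29 were more negative in females. For the 36 and the 29 no share of all tested genes was computed. The female sham group holds sham female 1, the highest sham library in 23 of the 46. Effects within females without that library are not given here. The test of the difference itself, a tumour by sex interaction, called 0 of the 46 and 0 of all tested genes in edgeR and 0 of the 46 in DESeq2. At an unadjusted p under 0.05 there were 2 of the 46 and 708 of all tested genes in edgeR, and 3 and 760 in DESeq2. Adamts1 had the smallest unadjusted p, with -1.82 ± 0.18 (SE) in females and -0.87 ± 0.19 (SE) in males (unadjusted p = 0.00193, adjusted p = 1.00). The other was Col5a3, with -0.76 ± 0.16 (SE) in females and -0.24 ± 0.18 (SE) in males (unadjusted p = 0.0443). Itga1 was -2.29 ± 0.55 (SE) in females, whose sham group holds sham female 1, and -0.73 ± 0.57 (SE) in males (unadjusted p = 0.0662). All 9 genes called within males were also called within females. Bgn, Fbln2 and Col1a2 were at -1.66, -1.16 and -1.16 in females and -1.78, -1.49 and -1.43 in males. Col6a3, Col15a1 and Lamc1 were also more negative in males. Col4a1 and Timp3 were more negative in females, at -1.47 and -1.54 against -1.26 and -1.29 in males, as was Adamts1. Sham female 1 was the highest sham library for each of these genes.

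**Figure D5:**
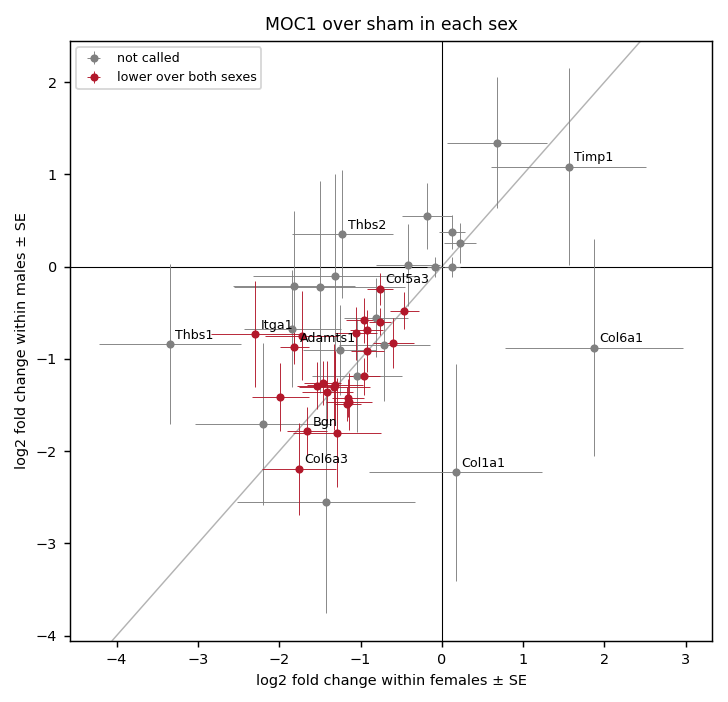
Log2 fold change of MOC1 over sham within females (x axis) and within males (y axis) for the 46 genes, with SE bars and the line of equal change. Red genes were called lower over both sexes and all lie below 0 on both axes under TMM scaling, and Col1a1 and Col6a1 are examples of genes that differ in sign.

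Other genes of the same pathways were counted by list. Of 200 further matrix and adhesion genes in 9 lists, 184 were tested, 44 were lower and 2 higher (4.28% and 2.34% over all tested genes, the background for each list below), with a median log2 fold change of -0.51. Other basement membrane genes gave 8 lower of 17 tested, among them Nid1, the other nidogen gene (-1.32 ± 0.10 SE), and Sparc, a collagen-binding glycoprotein (-1.26 ± 0.12). Other collagens gave 5 lower and 1 higher of 23, with Col28a1 at -1.07 ± 0.09 and Col12a1 at -1.73 ± 0.22 lower, and Col24a1 at 0.72 ± 0.20 higher. The Col24a1 call was lost under pan-neuronal scaling (0.46, adjusted p = 0.133) and without MOC1 female 3, MOC1 male 1, MOC1 male 3, sham male 1 or sham male 3 (adjusted p from 0.0605 to 0.0904). Other matrix glycoproteins gave 8 lower of 23, such as Ccn1, a matricellular protein (-1.82 ± 0.15), and Postn, periostin (-1.44 ± 0.17). Other proteoglycans gave 5 lower and 1 higher of 21, with Sdc3 (-0.88 ± 0.09) and Bcan (-1.11 ± 0.13) lower and Spock1 (0.36 ± 0.09) higher. Spock1 lost its call under pan-neuronal scaling (0.0864, adjusted p = 0.617) and without MOC1 female 3, MOC1 male 3, sham female 1, sham female 3 or sham male 3 (adjusted p from 0.0509 to 0.0654). Other proteases and inhibitors gave 8 lower of 30, including the serine protease inhibitor Serpine2 (-1.12 ± 0.10) and the membrane metalloproteinase Mmp14 (-0.94 ± 0.14). Genes that fold and crosslink collagen gave 3 lower of 18, including the collagen chaperone Serpinh1 (-1.45 ± 0.14) and the prolyl hydroxylase P4ha1 (-0.57 ± 0.12). Of 17 other integrins 2 were lower, both beta chains that pair with Itgav, Itgb8 (-1.42 ± 0.13) and Itgb3 (-1.54 ± 0.15). Of 20 genes of the adhesion machinery inside the cell 3 were lower, including Pxn, paxillin (-0.96 ± 0.16), and Tns3, a tensin (-0.61 ± 0.12). Of 15 TGF-beta ligands, receptors and binding proteins 2 were lower, Tgfbr3 (-0.77 ± 0.14) and Tgfb2 (-0.89 ± 0.22), the latter not without sham female 1 or sham male 3 (adjusted p of 0.0614 to 0.0825). Of these lower genes Pxn, Tns3, Sdc3, Mmp14, P4ha1, Tgfbr3 and Tgfb2 were above 0 under satellite glia scaling.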

How the data were processed

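RNA was measured in 11 libraries of sorted DiI-positive trigeminal neurons. The deposited values are whole-number read counts for each gene, made by the authors with STAR for the transcribed strand and left unscaled, per the file headers. The submitters' processing notes name Trimmomatic 0.35 for trimming, STAR 2.7.1a for alignment, RSEM, and the build GRCm38 (mm10). No annotation release is given in the sources used here. Each table has 4 totals that name no gene. They held 18.7% to 21.5% of its counts and were left out. Tables of this kind count only reads with 1 place in the genome, so genes with near-identical copies are uncertain.

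The tests used edgeR 4.0.16 in R 4.3.3. Low genes were removed by filterByExpr (groups: condition by sex), which left 16817. After TMM scaling, MOC1 was compared with sham by the quasi-likelihood F test in a model of sex plus condition, Benjamini-Hochberg adjusted over those genes, with a threshold of 0.05. A model of the 4 groups gave the effect within each sex and the difference of the effects. SE was computed from the fold change and its F value. Levels are CPM with TMM, and marker sums are shares of all gene counts in CPM, without TMM. Levels of different genes were compared as CPM per kilobase of exon from GENCODE M21. Marker sums were compared by two-sided exact permutation tests. The tests were first run on simulated data with known changes.

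The 46 genes, their 8 role classes, the 9 lists of further genes and the 8 marker lists were chosen with earlier results of these data known, so their counts are a description. Values by library are given for called members and for the most abundant uncalled member of each class. Up to 3 called genes per direction may be named from each further list, and the 2 most abundant genes and those at 0 from each marker list. Some genes that this rule allows are not reported here.

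The labels do not say whether libraries came from separate animals, so p-values measure the spread between libraries, which may be technical. Libraries of the same group always differed beyond counting error (chi-square per degree of freedom 13.5 or more), so none was treated as a repeat deposit. The submitters' design names DESeq2. Alternatives were DESeq2 1.42.0, its size factors, total-count and marker-list scaling, other filters, limma-voom 3.58.1 with quality weights, a replicate block, no sex term, marker shares as covariates, and libraries left out. Promoter windows came from RefSeq.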

Additional observations from a re-analysis of the deposited data

Results flagged for a closer look

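Among values of 5 sham or 6 MOC1 libraries, 108 sets were examined for a single library far from the rest of its group, and 19 met Dixon's criterion. By chance that criterion marks about 1 set in 20 where values are normally distributed. The CPM values were not checked for that and the sets share libraries, so the 19 cannot be read against this rate.

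Sham female 1 was the high library in 11 of the 19. It stood at 396 CPM for Col4a1 against 162 to 215 CPM in the other sham libraries, at 75.8 CPM for Col18a1 against 15.4 to 27.1, and at 39.7 CPM for Lama5 against 3.19 to 9.57. It was at 101 CPM for Fn1 against 10.5 to 28.1, at 28.4 CPM for Thbs1 against 3.43 to 9.39, and at 1540.0 CPM for Timp3 against 709 to 836. Among the integrins it was at 80.5 CPM for Itga1 against 21.1 to 26.6, at 19.3 CPM for Itga5 against 0.649 to 3.94, and at 192 CPM for Itga6 against 89.9 to 97.9. The same library held 1733 CPM of endothelial markers against 139 to 307, and 68.4 CPM of macrophage and other immune markers against 19.2 to 31.5. Without it Col18a1 and Itga1 lost their call, and Col4a1, Timp3 and Itga6 were still lower. The part of endothelial and immune RNA in these values was not tested.

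Sham male 3 was high in both type I collagen chains, at 24.8 CPM for Col1a1 against 2.51 to 6.13 and at 115 CPM for Col1a2 against 64.0 to 75.6. Sham female 2 was high in Col5a3, at 292 CPM against 182 to 202, and sham female 3 low in Itga3, at 68.6 CPM against 85.3 to 90.4. In MOC1, female 1 was high in Bgn, at 23.7 CPM against 12.2 to 15.7, male 3 in Dcn, at 24.5 CPM against 13.7 to 16.9, and female 2 in Lum, at 5.32 CPM against 0 to 1.90. Schwann cell markers were low in sham male 1, at 3342 CPM against 3583 to 3664.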

How the results depend on the processing

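The main fit gave 24 genes lower and 0 higher, beside 4.28% and 2.34% of all tested genes. DESeq2 gave 28 and 0 (5.4% and 3.85%), and its size factors in edgeR 25 and 0 (4.28% and 2.36%). Total-count scaling gave 25 and 0 (4.51% and 1.88%). No low-count filter gave 29 and 0 (4.12% and 2.29% of 24535 genes). A filter of 1 CPM in 5 libraries gave 24 and 0 (5.17% and 3.14% of 13993 genes). No sex term gave 26 and 0 (4.6% and 2.51%), and pan-neuronal scaling 31 and 0 (13.3% and 0.172%). Voom with quality weights gave 25 and 1 (5.17% and 3.19%). Leaving out sham female 1, MOC1 female 3 and MOC1 male 2 together gave 23 and 1 (4.90% and 2.74%). In both cases Itga3 was the higher gene. Leaving out 1 library at a time gave 20 to 25 lower and 0 higher (3.34% to 4.42% and 1.40% to 2.57%). Same-numbered libraries did not deviate together (correlations -0.04 to 0.04). With 2 or 3 libraries in a group this cannot exclude pairing by number. A replicate block gave 25 and 0 (4.23% and 1.93%), without Agrn and Tnc and with Col5a1, Lamb2 and Thbs1. Pan-neuronal scaling raised the share of lower among all called genes from 64.6% to 98.7%, and satellite glia scaling brought it to 0.623%.

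Satellite glia scaling gave 3 lower and 11 higher, beside 0.369% and 58.9% of all tested genes. The satellite glia share as a covariate gave 0 and 0, and 0 of all tested genes. Under that scaling 16 of the 46 changed sign, 8 of them called, and with the covariate 13, 5 of them called. The other uncalled genes that turned are, with the scaling, Col1a1, Col3a1, Thbs2, Itga5, Itgb4 and Itgb5, and, with the covariate, Col5a1, Col6a1, Tnr, Thbs2, Timp1, Timp2, Itgb1 and Itgb5. Under the scaling log2 fold changes turned to 0.35 for Col5a2, 0.52 for Col5a3, 0.20 for Lama2, 0.13 for Lama4, 0.37 for Lamb1, 0.63 for Agrn, 0.84 for Dcn, 0.26 for Itga6, 0.10 for Itgav, 1.01 for Itgb1, 0.0575 for Pxn, 0.42 for Tns3, 0.16 for Sdc3, 0.13 for Mmp14, 0.48 for P4ha1, 0.27 for Tgfbr3 and 0.15 for Tgfb2. With the covariate they turned to 0.47 for Col5a3, 0.30 for Lama2, 0.44 for Nid2, 0.26 for Reln, 0.54 for Itgav, -0.0169 for Col24a1 and 0.27 for Tns3, and Fbln2 and Col6a3 were at -0.22 and -0.28. None of the genes given with a value for the covariate was called in that edgeR fit (adjusted p from 0.758 to 0.996). The satellite glia share does not overlap between the groups, so the fit hardly separates it from condition, and these signs decide nothing. The shift under satellite glia scaling lies in its construction, since the marker sums differ between groups. For the other changes the cause was not tested. The interaction called 0 of the 46 in all fits but 1, Adamts1 with no low-count filter (adjusted p = 0.00942 in edgeR). That fit called 53 of all its genes, where the main fit called 0. Members under 10 CPM limit what these counts can show.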
